A study of Mus musculus with 4 samples.

Results

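The choroid plexus epithelium genes *Ttr*, *Clic6*, *Folr1*, *Aqp1*, *Calml4*, *Tmem72*, *Slc4a5*, *Enpp2*, *Car12* and *F5* were examined in RNA-seq counts of embryonic mouse telencephalic tissue. These 10 genes were picked by name from known products of this epithelium, with their counts in the same libraries already in view, among 27293 genes counted in 4 libraries. Their levels and fold changes are therefore a description and carry no test. Counts in all 4 libraries were at hand for 8 of the 10. *Ttr* and *Clic6* were counted in 1 WT and 1 cKO library, and their levels in the other 2 libraries were not analysed here.

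The libraries were made from C57BL/6 embryos at embryonic day 13 (E13), 2 labelled WT (WT 1, WT 2) and 2 labelled STINGf/f;Nestin-Cre (cKO 1, cKO 2). In the cKO embryos, Cre recombinase driven by the Nestin promoter, which is active in neural progenitors, deletes a floxed part of the gene of STING, an adaptor in the sensing of cytosolic DNA. The sample title of WT 2 carries the abbreviation nes where that of WT 1 carries wt. Neither its meaning nor the alleles that WT 2 holds beyond the label WT are stated in the sources used here. They also do not state whether a library came from 1 embryo or from pooled embryos, so the spread between libraries of a group may be technical. The floxed gene, counted as *Tmem173* over its whole length, was counted 20 and 19 times in the WT libraries and 18 and 22 times in the cKO libraries. Its count was not lower in the libraries labelled cKO, and since reads outside the deleted part are included, it does not check those labels.

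The choroid plexus is a fold of vascular stroma, covered by a cuboidal epithelium, that hangs into each brain ventricle and secretes cerebrospinal fluid. Its epithelium arises at the dorsal midline of the neural tube, next to the cortical hem, under BMP and Wnt signals. In the mouse telencephalon it begins to form shortly before this stage. The mature cells move sodium, chloride, bicarbonate and water into the ventricle, carry folate and thyroid hormone across the blood to fluid barrier, and release abundant secreted protein.

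Depth was similar in the 4 libraries, from 17209654 to 18533391 counted reads, so that 1 count stood for 0.0540 to 0.0581 CPM (counts scaled to library size) and 3 counts, which a count of 0 cannot exclude, for 0.162 to 0.174 CPM. Markers of cortical progenitors and neurons fitted the labelled tissue in each library, with all 18 of the listed genes detected and summed levels of 6808 and 7579 CPM in WT and 7562 and 6766 CPM in cKO. WT 1 stood apart from WT 2 in markers of neighbouring tissue. The 25 markers of meninges and mesenchyme summed to 509 CPM in WT 1 and to 156 CPM in WT 2, against 192 and 131 CPM in cKO 1 and cKO 2. The 11 red blood cell markers in the table summed to 1105 and 589 CPM in WT and to 479 and 720 CPM in cKO. Fold changes of the 8 genes with 4 libraries and medians of the gene lists are therefore also given without WT 1. In bulk tissue, fewer epithelial cells and less RNA per cell cannot be told apart.

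**Figure D1:**
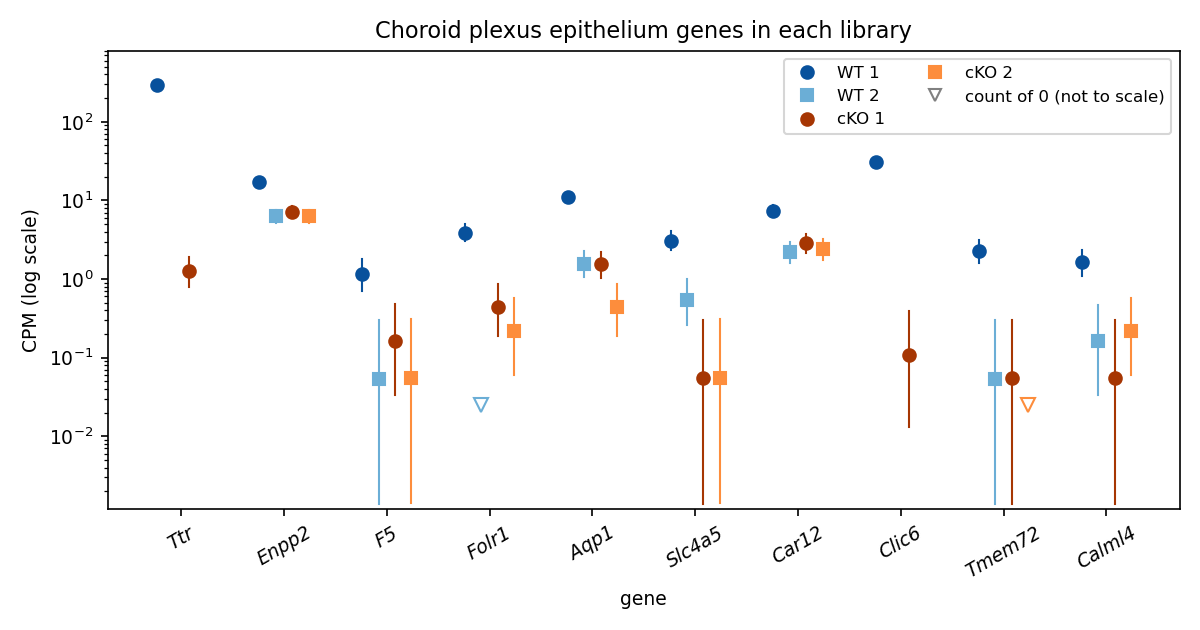
CPM of each gene in each library on a log axis, with exact Poisson 95% intervals that cover counting error. Blue points are the WT libraries, orange points the cKO libraries, and open triangles mark counts of 0. WT 1 is the highest library for each of the 8 genes with 4 libraries, while WT 2 overlaps the cKO libraries for most of them.

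The pattern common to the group was a high level in WT 1 and a low level in the other 3 libraries. WT 1 was the highest library in 8 of the 8 genes with 4 libraries, where 27.3% of the 16145 genes tested had their highest level in WT 1. The 8 genes summed to 47.8 CPM in WT 1 but to 10.9 CPM in WT 2, with 12.3 and 9.67 CPM in the cKO libraries. WT 2 thus lay between the cKO libraries, and the 2 WT libraries differed from each other by more than WT 2 differed from either cKO library. All 8 were at least 2-fold higher in WT 1 than in WT 2, against 4.47% of genes tested. These percentages refer to the genes that passed edgeR's filter on low counts (filterByExpr), which 3 of the 8 passed (*Aqp1*, *Enpp2*, *Car12*). The other 5 had few counts outside WT 1.

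Among the secreted products, *Ttr* was by far the most abundant in WT 1. *Ttr* encodes transthyretin, the carrier of thyroxine and of retinol-binding protein and a hallmark of this epithelium (chr18:20665250-20674324, plus strand, GRCm38). It had 5071 counts in WT 1 (295 CPM) and 23 in cKO 1 (1.26 CPM), a ratio of 234 (95% interval 156 to 369 from counting error). By CPM it ranked 543 among all genes in WT 1 and 14062 in cKO 1. Its share of the summed CPM of the 10 genes was 79.0% in WT 1 and 9.24% in cKO 1. With 1 library on each side this ratio has no replicate check.

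*Enpp2* encodes autotaxin, a secreted enzyme that makes the lipid signal lysophosphatidic acid (chr15:54838898-54920146, minus strand). WT 1 and WT 2 held 296 and 117 of its reads, and the cKO libraries 130 and 113. Only WT 1 was high, and WT 2 fell between the cKO libraries. The means were 11.8 ± 7.70 CPM in WT and 6.69 ± 0.624 CPM in cKO (SD, n = 2), with a fitted log2 fold change of -0.80 (SE 0.43). Without WT 1, the log2 ratio of cKO over WT 2 was 0.083.

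*F5*, coagulation factor V (chr1:164151838-164220277, plus strand), was near the detection limit outside WT 1. WT 1 held 20 reads and WT 2 held 1, while cKO 1 held 3 and cKO 2 held 1. WT 1 over WT 2 was 21.5 (interval 3.44 to 893), while WT 2 over the summed cKO libraries was 0.490 (interval 0.00995 to 4.95), so no difference between WT 2 and cKO was detectable at this depth.

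*Folr1* encodes folate receptor alpha, which takes folate across the epithelium into the fluid (chr7:101858331-101870788, minus strand). WT 1 held 67 reads and WT 2 none (0), while cKO 1 held 8 and cKO 2 held 4. WT 1 was at least 19-fold higher than WT 2 by the 95% counting limit. The libraries labelled cKO both held more reads of *Folr1* than WT 2, and WT 2 over cKO had an upper bound of 0.705 from counting error. Its mean of 1.95 CPM in WT (SD 2.75, n = 2) came from WT 1 alone, against 0.330 ± 0.154 CPM in cKO.

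*Aqp1*, the water channel of the apical membrane, had the most counts in WT 1 of the transport genes read in 4 libraries (chr6:55336432-55348555, plus strand). In each of the other libraries *Car12* had more. It was counted 192 times in WT 1 and 29 times in WT 2, against 28 and 8 times in the cKO libraries. Both cKO libraries were below both WT libraries, but by 1 count in the case of WT 2 and cKO 1. The means were 6.36 ± 6.78 CPM in WT and 0.989 ± 0.773 CPM in cKO (SD, n = 2), and the fitted log2 fold change was -2.66 (SE 0.89). The spread within each group was close to its mean. The cKO libraries also differed from each other, by 3.47-fold (interval 1.54 to 8.81), and *Aqp1* was the only one of the 8 whose cKO 1 over cKO 2 interval excluded 1. Without WT 1, the log2 ratio of cKO over WT 2 was -0.66.

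*Slc4a5*, a sodium bicarbonate cotransporter, gave the clearest separation of WT 2 from cKO (chr6:83219828-83304945, plus strand). WT 1 and WT 2 held 53 and 10 reads, and the cKO libraries 1 each. Both WT libraries were above both cKO libraries. WT over cKO, from summed counts, was 32.0 (interval 8.50 to 270), and WT 2 alone over cKO was 9.80 (interval 2.09 to 92.0). It was the only one of the 8 at least 2-fold higher in WT 2 than in cKO, where 1.05% of genes tested were, and the cKO side of this ratio rests on 2 counts in all. *Aqp1* and *Slc4a5* were the 2 of 8 genes with both cKO libraries below both WT libraries, against 11.2% of genes tested. Both shares cover genes that passed the filter, as *Aqp1* did and *Slc4a5* did not.

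The 250 bases before the RefSeq start sites of *Aqp1* and *Slc4a5* are shown (GRCm38.p6, plus strand, 5′ to 3′). Among the promoters searched, only those of these 2 genes held a motif. Capitals mark the motif found in each.
Aqp1, chr6:55336049-55336298: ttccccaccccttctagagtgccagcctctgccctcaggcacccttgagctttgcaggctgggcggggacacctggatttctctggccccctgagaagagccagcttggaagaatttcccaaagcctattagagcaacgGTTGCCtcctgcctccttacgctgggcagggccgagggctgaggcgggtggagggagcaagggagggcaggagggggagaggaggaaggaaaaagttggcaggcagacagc
Slc4a5, chr6:83237125-83237374: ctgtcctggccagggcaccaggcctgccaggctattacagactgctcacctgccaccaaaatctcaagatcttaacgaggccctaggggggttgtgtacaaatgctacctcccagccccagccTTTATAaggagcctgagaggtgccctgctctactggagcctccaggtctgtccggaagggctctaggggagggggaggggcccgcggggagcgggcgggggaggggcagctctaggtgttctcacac
The *Aqp1* window holds GTTGCC, a part of the RFX site and not the whole, 111 to 106 bases before the start. This motif was found on either strand in 10.4% of the 32851 RefSeq promoters of this length. RFX factors act in ciliated cells, among others. The *Slc4a5* window holds the letters of the TATA box motif (TATAAA) on the minus strand, 127 to 122 bases before the start. A match on either strand was found in 12.4% of promoters. That window lies inside the span of the deposited *Slc4a5* gene and overlaps an exon of a non-coding *Slc4a5* transcript. Of the 10 genes, 6 had their promoters searched here (*Aqp1*, *Calml4*, *Tmem72*, *Slc4a5*, *Car12* and *F5*). None of the 6 held the OTX site TAATCC (6.25% of all promoters), the homeodomain site TAATTA (4.84%), the forkhead site GTAAACA (3.17%) or the NF-kB consensus (3.90%). These are matches of letters in a short window and were not tested against binding.

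*Car12* encodes a membrane carbonic anhydrase, which supplies bicarbonate and protons for transport (chr9:66713686-66766845, plus strand). WT 1 and WT 2 held 127 and 41 reads, against 52 in cKO 1 and 44 in cKO 2. WT 2 was the lowest of the 4 libraries. The means were 4.80 ± 3.65 CPM in WT and 2.64 ± 0.296 CPM in cKO (SD, n = 2), with a fitted log2 fold change of -0.84 (SE 0.53). The log2 ratio of mean CPM, cKO over WT, was -0.86 with all libraries and 0.26 without WT 1.

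*Clic6*, of the chloride intracellular channel family, was the second most abundant per length of the 10 in WT 1 (chr16:92485736-92541243, plus strand). It had 526 counts in WT 1 (30.6 CPM) and 2 in cKO 1 (0.110 CPM). The ratio was 279 (interval 76.8 to 2307), the highest of the 10, and it rests on those 2 counts and on 1 library a side.

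*Tmem72*, a membrane protein (chr6:116679063-116716913, minus strand), and *Calml4*, a calmodulin-like light chain found in brush borders (chr9:62858080-62875921, plus strand), were also highest in WT 1. For *Tmem72*, WT 1 held 39 reads and WT 2 held 1, against 1 in cKO 1 and 0 in cKO 2. WT over cKO from summed counts was 40.7 (interval 6.89 to 1645), and WT 1 over WT 2 was as large at 42.0 (interval 7.11 to 1701). For *Calml4*, the WT libraries held 28 and 3 reads and the cKO libraries 1 and 4. Its WT 2 over cKO ratio was 1.18 (interval 0.183 to 6.05). For neither gene could WT 2 be separated from the cKO libraries at this depth.

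**Figure D2:**
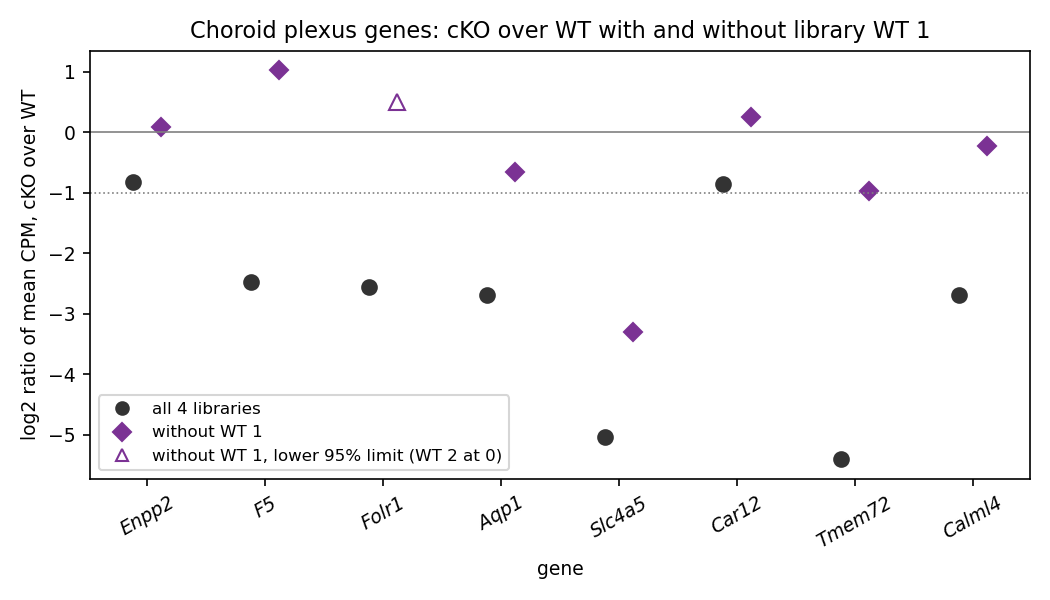
Log2 ratio of mean CPM, cKO over WT, for the 8 genes with 4 libraries. Circles use all 4 libraries, diamonds leave out WT 1, the triangle is the lower 95% counting limit for *Folr1* (WT 2 at 0), and the dotted line marks 2-fold lower. The circles lie between -0.81 and -5.40, whereas without WT 1 the values of *Enpp2*, *F5*, *Folr1* and *Car12* lie above 0 and that of *Slc4a5* alone lies under the dotted line.

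Compared as labelled, cKO against WT, mean CPM was at least 2-fold lower in cKO for 6 of the 8 genes, against 1.7% of genes tested. That share covers genes that passed the filter, as only 3 of the 8 did, and 1 of those 3 (*Aqp1*) was at least 2-fold lower. Ratios of WT over cKO ran from 1.76 (*Enpp2*) to 42.3 (*Tmem72*). The median log2 ratio of the 8 genes was -2.62. The same median was -0.074 without WT 1 and -3.53 without WT 2, and 1 of 8 genes (*Slc4a5*) was at least 2-fold lower without WT 1. The log2 ratios without WT 1 were -3.29 for *Slc4a5*, -0.98 for *Tmem72*, -0.23 for *Calml4* and 1.03 for *F5*. For *Folr1*, with WT 2 at 0, cKO was then at least 1.42-fold higher by the 95% counting limit. WT 2 lay at or below the cKO mean in 4 of 8 genes, and its ratio to cKO had an interval that contained 1 in 6 of 8. The count of genes lower in cKO thus rested on WT 1.

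Across all genes, edgeR's quasi-likelihood test placed 108 genes lower (0.669%) and 23 higher (0.142%) in cKO by the study's thresholds, 2-fold and an unadjusted p no larger than 0.05. None of the 16145 genes (0.0%) had a Benjamini-Hochberg adjusted p under 0.05, with 199 at an unadjusted p under 0.05, and DESeq2 also gave 0. The smallest adjusted p of edgeR was 0.9999.

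Pairs of single libraries were set side by side as log2 ratios with a pseudocount of 0.5 counts. The median over the 8 genes was 2.97 for WT 1 over WT 2 (range 1.44 to 7.18), where the median of all genes tested was 0.026 and their central 90% lay between -0.50 and 0.93. For cKO 1 over WT 1 it was -2.96, with all 8 genes below 0. For cKO 2 over WT 2 it was 0.0098, with 4 genes above 0, and for cKO 1 over WT 2 it was 0.099, with 5 above 0. Between the libraries labelled cKO the median was 0.57, with 6 of 8 genes higher in cKO 1. With *Ttr* and *Clic6* included, 10 of 10 genes were at least 2-fold higher in WT 1 than in cKO 1, and the ratios ran from 2.41 (*Enpp2*) to 279 (*Clic6*). Of genes tested, 4.21% were, a share that covers only genes that passed the filter.

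**Figure D3:**
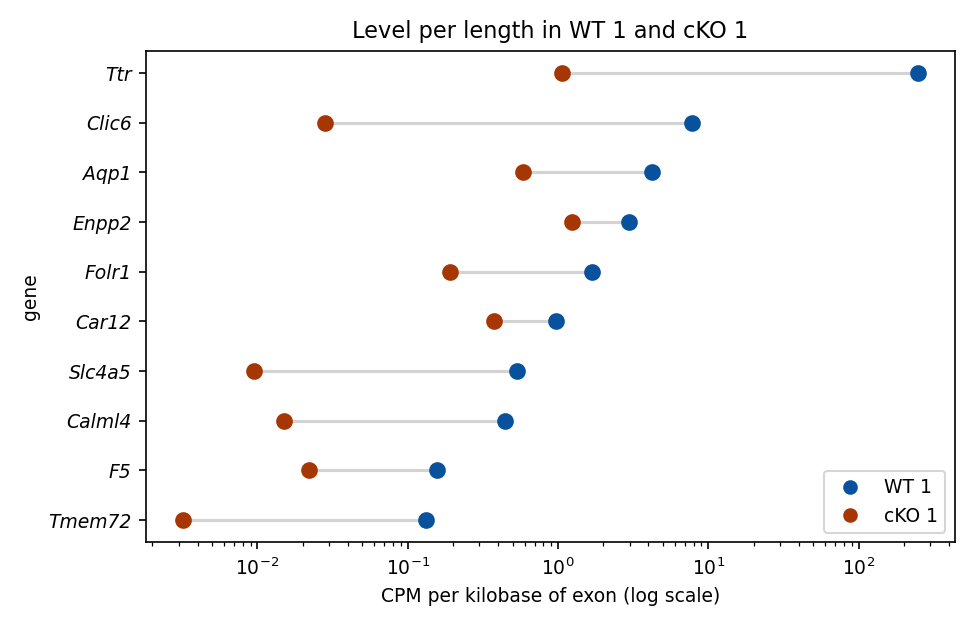
Level per length, in CPM per kilobase of annotated exon on a log axis, of the 10 genes in WT 1 (blue) and cKO 1 (orange). *Ttr* is at 248 in WT 1 and 1.06 in cKO 1, and *Enpp2* is the highest gene in cKO 1 at 1.23.

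Levels of different genes were compared as CPM per kilobase of exon. In WT 1 the order was led by *Ttr* at 248, followed by *Clic6* at 7.81, *Aqp1* at 4.25, *Enpp2* at 2.98 and *Folr1* at 1.69. *Car12* (0.971), *Slc4a5* (0.531), *Calml4* (0.447), *F5* (0.156) and *Tmem72* (0.132) were under 1. The exon length of *Tmem72* includes a long annotated transcript, which lowers its value on this scale. From *Aqp1* downward, each step between neighbours in this order was smaller than the ratio of WT 1 to WT 2 for the genes concerned, so the order of neighbours does not stand beyond the spread between WT libraries. In cKO 1 *Enpp2* came first at 1.23 and *Ttr* was next at 1.06. In WT 2 and cKO 2, where *Ttr* and *Clic6* have no value here, *Enpp2* was the highest of the 8 at 1.09 and 1.08. *Aqp1* and *Car12* came after, in this order at 0.596 and 0.291 in WT 2 and 0.584 and 0.375 in cKO 1, and in the opposite order at 0.168 and 0.320 in cKO 2. *Enpp2* and *Car12*, which had the most counts of the 8 outside WT 1, were the genes with the smallest ratio of WT 1 to WT 2, at 2.72 and 3.34.

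Further markers of the epithelium that were not among the 10 showed the same library in front. This list of 34 genes had 33 in the table and 21 tested. Of the 21, 4 were lower in cKO at the study's thresholds and 0 higher, against 0.669% and 0.142% of all genes tested. The list had a median log2 fold change of -0.040 beside -0.0094 for all genes tested. That median covers genes that passed the filter. It was -0.91 with a filter of 1 count in any library, which takes in the low markers, and -0.25 without WT 2, -0.30 without cKO 2 and 0.091 without WT 1. The 4 were *Htr2c*, *Kcne2*, *Trpm3* and *Ace*. *Htr2c*, a serotonin receptor abundant in this epithelium, had 101 and 18 counts in the WT libraries, 4 and 7 in the cKO libraries, and a log2 fold change of -3.44 (SE 0.89), which was -1.66 without WT 1. *Kcne2*, a potassium channel subunit, had 183, 4, 13 and 6 counts (here and from now on WT 1, WT 2, cKO 1, cKO 2 in turn), and its log2 fold change turned from -3.33 (SE 1.31) to 1.24 without WT 1. *Trpm3*, a cation channel, had 284, 80, 81 and 29 counts and went from -1.77 to -0.52. *Ace*, angiotensin-converting enzyme, had 119, 51, 20 and 45 counts and went from -1.41 to -0.62. WT 1 was the highest library for all 4, and for *Htr2c* and *Ace* both cKO libraries lay below WT 2.

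Several markers of the list were too low to be tested. *Krt18* had 59 counts in WT 1 and 0, 1 and 0 in WT 2, cKO 1 and cKO 2. *Sostdc1*, a secreted BMP and Wnt antagonist, had 106, 3, 4 and 8, and the tight junction genes *Cldn1* and *Cldn2* had 58, 5, 6 and 1 and 12, 0, 0 and 0. An abundant gene of the list had similar counts in the 4 libraries. *Igfbp2* had 3525, 3592, 3364 and 4068 counts, and the summed level of the list, to which it contributes much, was 635 and 551 CPM in WT and 518 and 596 CPM in cKO. It is also made by other cells of the embryonic brain. No listed gene was at 0 in WT 1, whereas *Krt18*, *Krt8* and *Cldn2* were at 0 in WT 2, *Cldn2* and *Slc39a12* in cKO 1, and *Krt18*, *Cldn2*, *Mfrp* and *Kcnj13* in cKO 2.

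The general machinery of ion and water transport, which the epithelium shares with other cells, held no called gene. Of 31 genes tested, 0 passed in either direction, and the median log2 fold change was -0.10, and 0.016 without WT 1. At the all-gene shares of 0.669% lower and 0.142% higher, a list of this size may well hold no called gene. The chloride importer *Slc12a2* had 872, 754, 882 and 645. *Car2*, a cytosolic carbonic anhydrase, had 186 counts in WT 1 and 114, 112 and 107 in the others. Nor did any of the 30 tested partners of the secreted and receptor products pass, again near those all-gene shares. Their median was -0.071, and 0.021 without WT 1. Among them, *Stra6*, the retinol-binding protein receptor, had 295, 167, 150 and 178 counts. *Slc46a1*, the proton-coupled folate transporter that works beside folate receptor alpha, had 377, 461, 435 and 449. *Lpar1*, a receptor for the product of autotaxin, had 501, 429, 471 and 420.

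Genes that pattern the dorsal midline and specify the choroid plexus were also mostly highest in WT 1. Of 24 tested, 1 was lower in cKO at the thresholds and 0 higher, against 0.669% and 0.142% of all genes tested. In 23 the log2 fold change was below 0, and the median was -0.70, which turned to 0.19 without WT 1. WT 1 was highest in 21 of 24, against 27.3% of all genes tested. Their summed level was 464 and 220 CPM in WT and 234 and 239 CPM in cKO, with none at 0 in WT 1, *Lmx1b* at 0 in WT 2 and in both cKO libraries, and *Hes3* at 0 in cKO 2. The gene called was *Otx2*, a homeobox factor needed for choroid plexus development, with 358, 124, 71 and 125 counts and a log2 fold change of -1.33 (SE 0.51) that was -0.31 without WT 1. *Lmx1a*, a factor of the roof plate and cortical hem, had 83, 6, 20 and 19 counts, the Wnt ligand gene *Wnt3a* had 72, 6, 6 and 20, and *Rspo2*, which amplifies Wnt signals, had 166, 12, 30 and 38. In these 3 genes WT 2 was the lowest library, level in counts with cKO 1 for *Wnt3a*.

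Markers of other cells that can lie beside the choroid plexus also had their highest summed level in WT 1. Of 19 multiciliated cell genes tested, *Ak7* was lower in cKO (63, 20, 13 and 7 counts, log2 fold change -2.07, SE 0.67, and -0.97 without WT 1). None was higher, and the shares over all genes tested were 0.669% lower and 0.142% higher. The list median was -0.31, which was 0.040 without WT 1 and -0.71 with a filter of 1 count in any library. The list summed to 280 and 183 CPM in WT and 193 and 185 CPM in cKO. WT 1 was highest in 13 of the 19, against 27.3% of all genes tested, and at least 2-fold above WT 2 in 7. *Foxj1*, the master gene of motile cilia, had 498, 206, 223 and 313 counts. None of the listed genes was at 0 in WT 1, *Dynlrb2* was at 0 in WT 2, *Dnali1* in cKO 1, and *Dnali1*, *Pifo* and *Dynlrb2* in cKO 2.

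In the meninges and mesenchyme list, 4 of 19 tested genes were lower in cKO and none higher, against 0.669% and 0.142% of all genes tested. The list median of the log2 fold change was -1.18, which turned to 0.13 without WT 1. WT 1 was highest in 18 of 19, against 27.3% of all genes tested. *Col1a1*, a fibrillar collagen, had 1160, 179, 221 and 106 counts and a log2 fold change of -2.08 (SE 0.75) that was -0.11 without WT 1. *Col1a2* went from -1.59 to 0.21. The homeobox gene *Alx4* (128, 76, 32 and 32 counts) had a log2 fold change of -1.69, and -1.22 without WT 1. *Twist2* was at 0 in WT 2, cKO 1 and cKO 2, and *Alx1* in cKO 1.

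The remaining lists held no called gene, where 0.669% of all genes tested were lower and 0.142% higher at the thresholds. Endothelial markers summed to 312 and 234 CPM in WT and 205 and 221 CPM in cKO, with 14 tested and a median of -0.26, and none at 0. Microglia and macrophage markers summed to 61.1 and 39.6 CPM in WT and 36.6 and 43.4 CPM in cKO, with 12 tested and a median of -0.24. Without WT 1 these medians were -0.12 and 0.052. The median was -0.39 for 10 red blood cell genes (0.087 without WT 1), 0.068 for 18 genes of cortical progenitors and neurons (-0.011 without WT 1) and -0.00013 for 8 NF-kB targets (0.15 without WT 1). For diencephalon and midbrain, 6 of the 13 genes in the table were tested, with a median of -0.29 (-0.23 without WT 1), which was -0.76 with a filter of 1 count in any library. Diencephalon and midbrain genes summed to 151 and 109.5 CPM in WT and 71.5 and 108 CPM in cKO. The part of these other cells and regions in the levels of the choroid plexus genes was not tested.

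**Figure D4:**
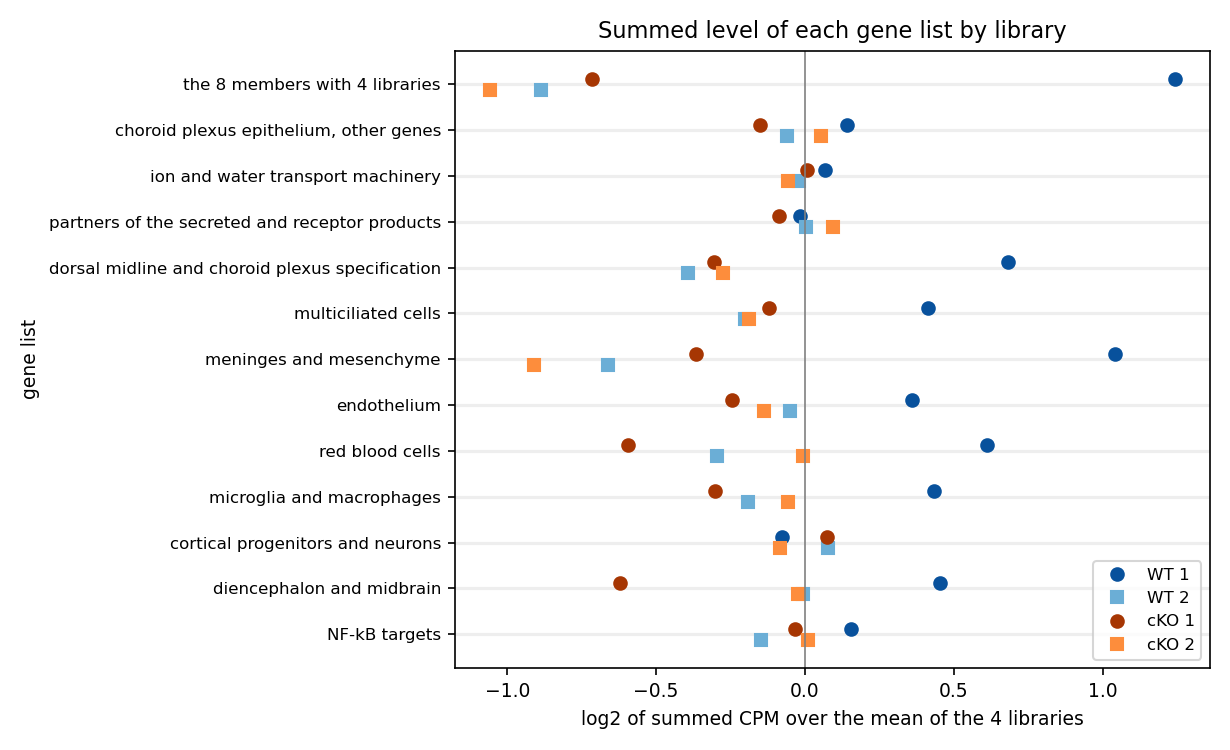
Log2 of the summed CPM of each gene list in each library over the mean of the 4 libraries. Blue marks are WT and orange marks cKO. WT 1 is far to the right for the 8 choroid plexus genes (47.8 CPM against 9.67 to 12.3), for meninges and mesenchyme (509 CPM against 131 to 192) and for the dorsal midline (464 CPM against 220 to 239), while transport machinery, partners and cortical markers lie near 0.

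The genes whose profile over the 4 libraries lay nearest to that of the choroid plexus genes were sought among 16142 ranked genes. Likeness was the root mean square difference between log2 CPM centred on each gene's mean and the median of the centred values of the 8 genes, which stood at 2.57 and -0.57 for the WT libraries and at -0.25 and -0.84 for the cKO libraries. Before the log, 0.5 counts were added to each count. The 10 nearest were *Calcrl*, *Aebp1*, *Col1a1*, *Trpm5*, *Col6a1*, *Col1a2*, *Cp*, *Wfikkn2*, *Bmp6* and *Slc6a13*, at distances from 0.241 to 0.422, where the median over all ranked genes was 1.39. The nearest, *Calcrl*, a receptor for calcitonin gene-related peptide and adrenomedullin, had 81, 11, 13 and 8 counts. *Aebp1*, a matrix protein, had 261, 45, 51 and 34, and *Cp*, ceruloplasmin, had 70, 10, 14 and 13. WT 1 was highest in all 10, which follows from choosing them by this profile. A marker list used here holds 6 of them, among them the mesenchymal genes *Col1a1*, *Col1a2*, *Col6a1* and *Slc6a13*. The lists were chosen with earlier results of these data known, and the share of all ranked genes in a list was not computed. When the profile was taken without WT 1, 0 of the 10 were named again.

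The 8 genes were not uniform. *F5* was nearest to their median profile at 0.429 and *Folr1* farthest at 1.66, which had the lowest centred value of all in WT 2 (-3.62) and the highest in cKO 1 (0.49). *Folr1* had 0 counts in WT 2, so its centred values and its distance depend on the 0.5 counts added. *Slc4a5* was the only one above its own mean in WT 2 (0.78).

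**Figure D5:**
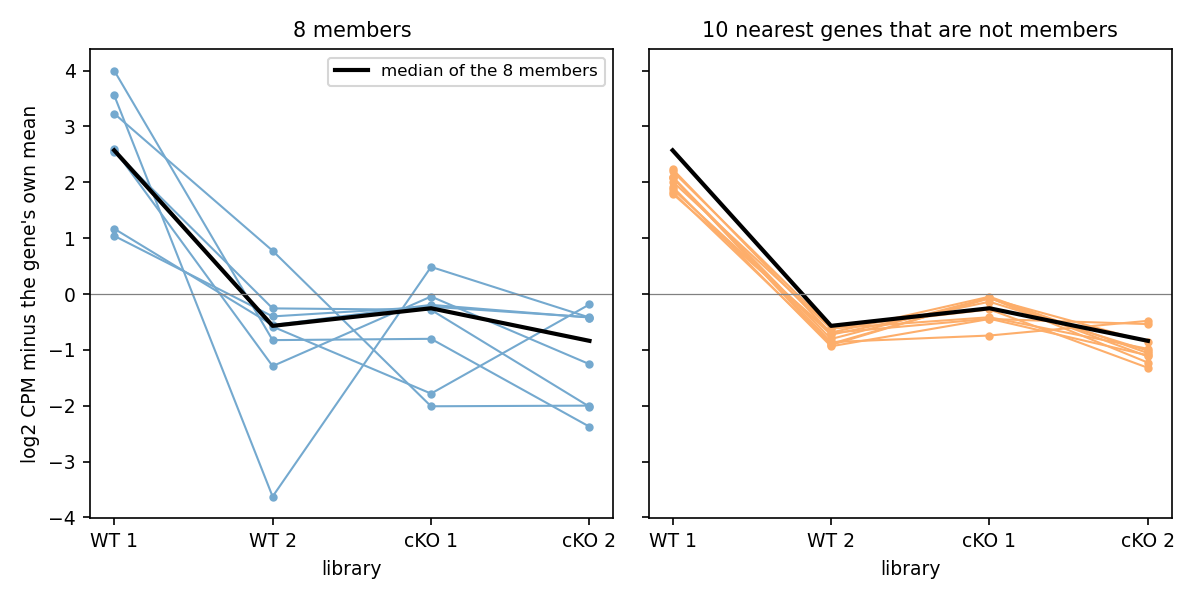
Log2 CPM (0.5 counts added) minus the gene's own mean over the 4 libraries, for the 8 choroid plexus genes (left) and the 10 nearest other genes (right), with the median of the 8 in black. Each line is 1 gene. The black line falls from 2.57 in WT 1 to -0.57 in WT 2, and the 10 nearest genes follow it closely because they were chosen by that measure.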

How the data were processed

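Total RNA was extracted with TRIzol from 2 WT and 2 cKO tissue samples, and cDNA libraries were sequenced on an Illumina HiSeq instrument. The authors deposited raw read counts per gene in a table of 4 libraries (27304 rows, of which 11, 0.0403%, name no gene and were left out) and a table of WT 1 and cKO 1. The 21342 genes in both tables have identical counts, and 11 genes, *Ttr* and *Clic6* among them, were read from the second table. Deposited scaled values, means, fold changes and p-values were not used. The submitters' processing notes name Bowtie2 2.2.3, TopHat2 2.0.12, HTSeq 0.6.0 and the build mm9. The deposited positions, however, match GENCODE M21 (GRCm38) within 1 base for 97.3% of genes and were read as GRCm38. Whether counting used strand or shared reads between similar genes is not given in the sources used here.

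CPM was computed from total counts of 17209654 to 18533391 per library. Counting intervals are exact 95% intervals (Poisson for a count, conditional binomial for a ratio, scipy 1.17.1) and cover counting error only. cKO was tested against WT with edgeR 4.0.16 in R 4.3.3 (TMM factors 0.989 to 1.01, filterByExpr, quasi-likelihood test, no covariate), at the thresholds of the study's methods. The SE given with a fitted log2 fold change is its absolute value divided by the root of the quasi-likelihood F. It is derived from the test and is not an SE reported by the model. Groups came from the sample labels. DESeq2 1.42.0, other filters and scalings, a replicate block and fits without each library were alternatives. The procedure was tested on simulated counts. Promoters are the 250 bases before RefSeq starts.

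The 10 genes and all lists were chosen with earlier results of these data known. Named list genes were those called at the thresholds, up to 5 a list, and genes that a role sentence needed. A few results on list genes are not reported here.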

Additional observations from a re-analysis of the deposited data

How the results depend on the processing

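For the 8 genes, the number at least 2-fold lower in cKO stayed at 6 of 8 with RLE normalization, DESeq2, the replicate block and a filter of 1 count in any library, with medians of the log2 fold change from -2.16 to -2.59. It was 1 of 3 (median -0.84) among genes passing filterByExpr, an alternative chosen after seeing the data, and 0 of 2 (median -0.82) at 10 counts in every library, since fewer genes pass. Leaving out each library gave 1 to 8 genes and medians from -3.53 to -0.074, the lowest count and the smallest median without WT 1. Over the same fits the log2 ratio ran from -1.36 to 0.083 for *Enpp2*, from -3.46 to 1.03 for *F5* and from -1.48 to 0.26 for *Car12*, each above 0 without WT 1. With a pseudocount of 5 counts, the median of WT 1 over WT 2 was 2.16. Of the 10 nearest genes, 8 were named again at 10 counts in every library and 0 without WT 1.

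Over all genes, 131 passed the study's thresholds. The number was 405 with the filter of 1 count, 72 at 10 counts in every library, 65 with DESeq2, 208 with the replicate block and 14 at an unadjusted p of at most 0.01, and 100 to 517 without a library. Without WT 1 the split was 48 lower and 52 higher, against 108 and 23. Adjusted p under 0.05 was reached by 65 genes with the filter of 1 count, by 5 with the replicate block and by 0 to 80 without a library (80 without WT 2). List genes lower in cKO numbered 10, and 50 with the filter of 1 count, 5 at 10 counts in every library, 19 with the replicate block and 2 to 49 without a library. The cause of these shifts was not tested. Fits without a library leave 1 in a group, which is assumed to vary like the others. Same-numbered libraries share a number but no stated origin, and their deviations correlated at 0.108 over genes, so the block was not used as the main analysis. With few counts outside WT 1, counting error limits 5 of the 8 genes.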
